A study of Mus musculus with 6 samples.

Results

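The core circadian clock genes *Arntl*, *Clock*, *Npas2*, *Per1*, *Per2*, *Per3*, *Cry1*, *Cry2*, *Nr1d1* and *Nr1d2* were chosen by symbol from the RNA-seq table of mouse livers, where all 10 were found among 21297 genes. The livers came from wild-type male C57BL/6J mice on a chow diet, 8 weeks old at the start, that were given an antisense oligonucleotide (ASO) intraperitoneally at 50 mg/kg, 1 time a week over 6 weeks, and were sacrificed 48 h later. ASOs are short synthetic strands that bind a target RNA and lead to its loss. One group received a control ASO (CON ASO, replicates 1, 2 and 4) and the other an ASO against *Mmab* (MMAB ASO, replicates 1, 2 and 4), which encodes an enzyme of vitamin B12 metabolism. Every liver therefore carried an ASO, and livers without one were not analysed here. Each library is, per the study, 1 mouse, so that each group holds 3 mice. The limma p-values below rest on the spread between these mice, drawn toward the spread of other genes at a similar level. A gene more variable than most can thus have a smaller standard error than its own values alone would give.

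The clock of mammalian cells is a loop of transcription. BMAL1, the product of *Arntl*, pairs with CLOCK or its paralog NPAS2, binds E-box elements and turns on the period, cryptochrome and REV-ERB genes. PER and CRY proteins enter the nucleus and inhibit this pair, while the nuclear receptors REV-ERBα (*Nr1d1*) and REV-ERBβ (*Nr1d2*) bind ROR response elements and repress *Arntl*. In the liver these mRNAs rise and fall each day, with *Arntl* and *Npas2* near the opposite phase of *Nr1d1* and the period genes, and with *Cry1* later than the other repressors. A level in a single liver therefore depends on the hour at which it was taken. The mice were kept in 12 h of light a day with lights on at 7, but the hour at which each liver was taken is not given in the sources used here, so an effect of the hour and an effect of the ASO cannot be told apart.

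Elements of this loop were found in the promoters of 4 of the 10 genes. RefSeq windows (GRCm38.p6) that reach from 250 bases before a start to 50 after it were searched on both strands, and 13 windows of 9 genes were matched. *Per2* had no window. The 5 matches are printed 5′ to 3′ on the strand of the gene, with the element in capitals, because they show the 3 kinds of element through which the genes described below are known to act on each other.
Per1, E-box, from base -166 of the start, chr11:69098763-69098808, plus strand: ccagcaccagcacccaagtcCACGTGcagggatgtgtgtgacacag
Cry1, E-box, from base -60 of the start, chr10:85185089-85185134, minus strand: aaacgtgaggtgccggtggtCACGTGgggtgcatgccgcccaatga
Per3, D-box, from base -205 of the start, chr4:151044843-151044890, minus strand: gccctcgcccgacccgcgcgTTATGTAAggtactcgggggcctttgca
Per3, D-box, from base -158 of the start, chr4:151044796-151044843, minus strand: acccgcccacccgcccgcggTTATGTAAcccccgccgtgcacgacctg
Arntl, ROR response element, from base 28 of the start, chr7:113207529-113207557, plus strand: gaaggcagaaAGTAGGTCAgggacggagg

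The E-box CACGTG, to which the BMAL1 pairs bind, was in 7.15% of all 32851 windows. It was in that of *Cry1* and in a window of *Per1*, whose other window had no match. The D-box, searched as TTATGTAA or TTACGTAA and bound by DBP, TEF, HLF and the repressor NFIL3, was in 1.06% of all windows and occurred in *Per3* at both places shown. The ROR response element, searched as ANTAGGTCA, TNTAGGTCA, ANTGGGTCA or TNTGGGTCA, was in 3.20% of all windows. It was in a window of *Arntl*, whose other window had no match. The cAMP response element TGACGTCA was in 1.79% of all windows and in 0 of these 9 genes. A match gives the letters alone, and letters absent from these short windows may lie elsewhere in a gene.

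Before the comparison, 3 features of these libraries bear on the clock genes. *Mmab* was at 6.31, 5.30 and 6.83 CPM (read counts scaled to the total of the library) in the CON ASO livers and at 1.87, 2.69 and 1.80 CPM in the MMAB ASO livers, in replicate order, so each library matched its label. CON ASO replicate 4 was the highest or the lowest of the 6 livers for 7 of the 10 clock genes, where it was so for 37.1% of all 11565 genes tested. Markers of sinusoidal endothelial and stellate cells were higher in MMAB ASO livers. Of 10 sinusoidal endothelial markers 8 passed the test, a limma adjusted p under 0.05, which 4.09% of all 11565 genes did. All 10 had a positive log2 fold change, with a summed level of 41.5 to 63.1 CPM in CON ASO and 96.6 to 110 CPM in MMAB ASO livers. Of 10 stellate cell markers 7 passed (87.7 to 117 against 152 to 178 CPM), of 9 Kupffer cell and macrophage markers 2 passed (27.0 to 97.9 against 60.3 to 102 CPM), and of 9 hepatocyte markers 0 passed (59679 to 71306 against 51388 to 66598 CPM). All markers tested in these 4 lists were above 0 in every library, and of 5 erythroid markers 2 and of 2 cholangiocyte markers 1 passed as higher. A further erythroid marker, *Alas2*, was lower in every MMAB ASO liver without passing (log2 fold change -0.45, limma adjusted p = 0.0802). The Kupffer cell marker *Marco* was also lower in every MMAB ASO liver without passing (log2 fold change -2.96, limma adjusted p = 0.108). In replicate order it was at 15.7, 0.813 and 0.805 CPM in CON ASO and at 0.426, 0.134 and 0.380 CPM in MMAB ASO. The other 8 Kupffer cell and macrophage markers tested had positive log2 fold changes. No T or B lymphocyte marker reached a mean of 1 CPM. Clock genes are expressed in all of these cell types. The part of cell composition in the results below was not tested, and in whole liver RNA fewer cells of a type and less RNA per cell cannot be told apart.

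No core clock gene differed between the groups at an adjusted p under 0.05, and the genes with the clearest differences were repressors that were lower in MMAB ASO livers. All 10 passed the filter, a mean of 1 CPM or more over the 6 livers, and were tested. Of them, 0 passed an adjusted p of 0.05 in limma over 11565 genes, which 4.09% of all genes did. At an unadjusted p of 0.05, 3 passed (*Per2*, *Cry2* and *Nr1d1*), where 17.8% of all genes did. The same 3 passed the thresholds of the study (a fold of 1.5 or more with an unadjusted p up to 0.05) as lower in MMAB ASO, which 3.55% of all genes did, and 0 passed them as higher, which 5.52% of all genes did. In 1 of the 10, *Cry2*, the values of the groups did not overlap, where 22.7% of all genes had groups without overlap in either direction.

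**Figure D1:**
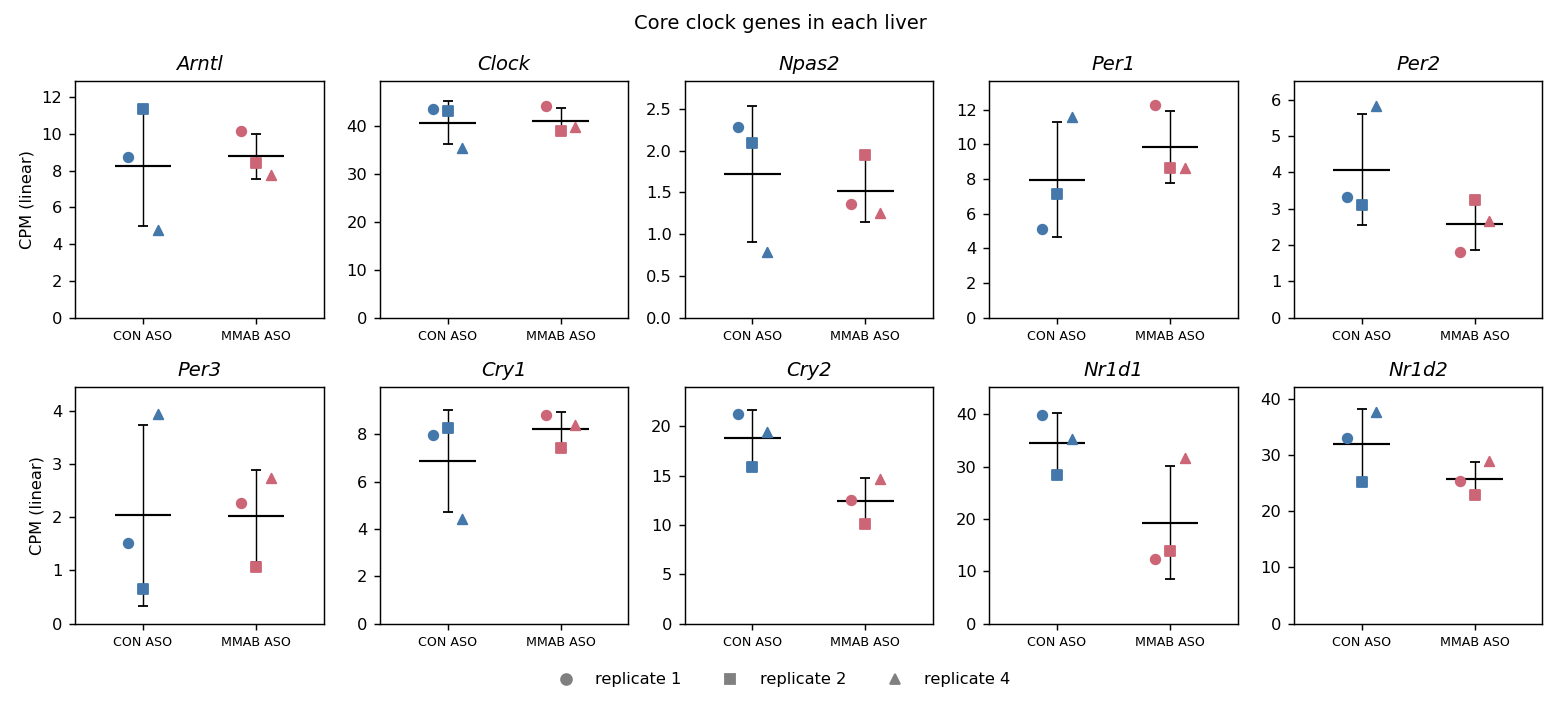
Level of each core clock gene in CPM on a linear axis that starts at 0, by group, with 1 point for each liver (shape gives the replicate), a bar at the mean and error bars of 1 SD (n = 3). Only in *Cry2* do the groups not overlap. CON ASO replicate 4 (blue triangle) is the lowest point for *Arntl*, *Clock*, *Npas2* and *Cry1* and the highest for *Per2*, *Per3* and *Nr1d2*.

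REV-ERB genes were lower on average in MMAB ASO livers, in particular *Nr1d1*. *Nr1d1* (minus strand of chromosome 11, 98767932 to 98775333, GRCm38) was at 39.8, 28.4 and 35.3 CPM in the CON ASO livers and at 12.4, 13.8 and 31.7 CPM in the MMAB ASO livers, here and below in the order of replicates 1, 2 and 4. MMAB ASO replicates 1 and 2 were far below every CON ASO liver, whereas replicate 4 was above CON ASO replicate 2. The means were 34.5 ± 5.75 and 19.3 ± 10.8 CPM (SD, n = 3 each), a log2 fold change of -0.96 (standard error, SE, 0.28, 95% interval -1.58 to -0.34, limma unadjusted p = 0.00553, adjusted p = 0.0900). An exact two-sided permutation test gave p = 0.2, where 0.1 is the smallest that 3 against 3 allow. Without MMAB ASO replicate 4 the log2 fold change of *Nr1d1* was -1.38 (adjusted p = 0.00324), and when CON ASO replicate 2 was left out it was -1.09 (adjusted p = 0.0268). In the fits without 1 of the other 4 livers the adjusted p lay above 0.05, with a maximum of 0.246. In the other settings that kept all 6 livers its limma adjusted p lay between 0.0568 and 0.180. The unadjusted p of *Nr1d1* was 0.0183 with no trend in the variance prior and 0.0323 with protein-coding scaling.

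*Nr1d2* (chromosome 14, 18204054 to 18239127, minus strand) was at 32.9, 25.1 and 37.5 CPM in CON ASO and at 25.3, 22.8 and 28.9 CPM in MMAB ASO livers. The groups overlapped, and the means were 31.9 ± 6.29 and 25.7 ± 3.04 CPM (SD, n = 3 each). Its log2 fold change was -0.30 (SE 0.16, 95% interval -0.65 to 0.05, limma adjusted p = 0.364). It was -0.46 when CON ASO replicate 2 and -0.17 when CON ASO replicate 4 was left out. On the log2 scale *Nr1d1* minus *Nr1d2* was 0.27, 0.18 and -0.09 in CON ASO replicates 1, 2 and 4, and -1.03, -0.72 and 0.14 in MMAB ASO replicates 1, 2 and 4. In MMAB ASO replicates 1 and 2, then, *Nr1d1* was low relative to its paralog too, and in replicate 4 it was not.

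Of the cryptochromes, *Cry2* was lower in every MMAB ASO liver and *Cry1* was not. *Cry2* (chromosome 2, 92403646 to 92434043, minus strand) was at 21.3, 15.8 and 19.4 CPM in CON ASO and at 12.5, 10.1 and 14.7 CPM in MMAB ASO livers. The highest MMAB ASO liver was thus below the lowest CON ASO liver. The means were 18.8 ± 2.77 and 12.4 ± 2.27 CPM (SD, n = 3 each), with a log2 fold change of -0.60 (SE 0.17, 95% interval -0.97 to -0.24, limma unadjusted p = 0.00353, adjusted p = 0.0686). The exact two-sided permutation p was 0.1, the smallest possible. When each liver was left out in turn, the log2 fold change of *Cry2* stayed between -0.73 and -0.46, and its adjusted p between 0.0270 (CON ASO replicate 2 left out) and 0.194 (CON ASO replicate 4 left out). It passed in 1 of these 6 fits. The fold of 1.52 for *Cry2* was just past the 1.5 of the study, and it was under 1.5 without CON ASO replicate 1 (log2 fold change -0.51), CON ASO replicate 4 (-0.58) or MMAB ASO replicate 2 (-0.46), with a pseudocount of 1 (-0.56), with protein-coding scaling (-0.51) and with array weights (-0.46).

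*Cry1* (chromosome 10, 85131700 to 85185064, minus strand) was at 7.97, 8.26 and 4.41 CPM in CON ASO and at 8.83, 7.40 and 8.37 CPM in MMAB ASO livers. A single liver, CON ASO replicate 4, lay apart from the other 5. The log2 fold change of 0.31 (SE 0.22, 95% interval -0.18 to 0.79, limma adjusted p = 0.523) was 0.01 without that liver. On the log2 scale *Cry1* minus *Cry2* was -1.42, -0.94 and -2.14 in CON ASO replicates 1, 2 and 4 and -0.50, -0.45 and -0.81 in MMAB ASO replicates 1, 2 and 4. *Cry1* was thus nearer to *Cry2* in all 3 MMAB ASO livers than in the CON ASO livers, with no overlap. The values of *Cry2* alone did not overlap either, so this is not a separate result.

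The period genes did not move as one. *Per2* (chromosome 1, 91415982 to 91459324, minus strand) was at 3.31, 3.09 and 5.83 CPM in CON ASO and at 1.81, 3.25 and 2.66 CPM in MMAB ASO livers. MMAB ASO replicate 2 was above CON ASO replicate 2, so that the groups overlapped. The log2 fold change was -0.64 (SE 0.28, 95% interval -1.25 to -0.04, limma unadjusted p = 0.0391, adjusted p = 0.252, exact permutation p = 0.2). It rested in part on CON ASO replicate 4 and MMAB ASO replicate 1, since it was -0.36 (unadjusted p = 0.216) without the first and -0.41 (unadjusted p = 0.157) without the other. Without MMAB ASO replicate 4 it was -0.69 with an unadjusted p of 0.0524. The unadjusted p of *Per2* also lay above 0.05 with median-ratio scaling (0.0683), with protein-coding scaling (0.112) and with no trend in the variance prior (0.0526), and its fold was under 1.5 with a pseudocount of 1 (log2 fold change -0.49).

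*Per1* (chromosome 11, 69095217 to 69109960, plus strand), which also responds quickly to glucocorticoids and cAMP, was at 5.12, 7.15 and 11.6 CPM in CON ASO and at 12.3, 8.63 and 8.65 CPM in MMAB ASO livers. CON ASO replicate 4 was above 2 of the 3 MMAB ASO livers. The log2 fold change was 0.37 (SE 0.26, 95% interval -0.19 to 0.93, limma adjusted p = 0.501). It ranged from 0.09 without CON ASO replicate 1, with 0.20 without MMAB ASO replicate 1, to 0.68 without CON ASO replicate 4, where the unadjusted p was 0.0115 and the adjusted p 0.167.

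*Per3* (chromosome 4, 151003652 to 151044665, minus strand), whose window holds both D-boxes, was at 1.51, 0.656 and 3.93 CPM in CON ASO and at 2.27, 1.07 and 2.74 CPM in MMAB ASO livers. It had the widest spread of the 10 genes among CON ASO livers, an SD of 1.29 on the log2 scale. The lowest and the highest of the 6 livers were both CON ASO livers. The log2 fold change of 0.26 (SE 0.54, 95% interval -0.91 to 1.42, limma adjusted p = 0.860) went from -0.37 without CON ASO replicate 2 to 0.92 without CON ASO replicate 4. That wide interval holds values of both signs, so the direction of any change in *Per3* was not settled.

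The activators showed no difference between the groups that exceeded their spread. *Arntl* (chromosome 7, 113207465 to 113314126, plus strand) was at 8.74, 11.3 and 4.76 CPM in CON ASO and at 10.2, 8.42 and 7.77 CPM in MMAB ASO livers. The 3 MMAB ASO livers lay between CON ASO replicates 4 and 2. The means were 8.28 ± 3.32 and 8.78 ± 1.23 CPM (SD, n = 3 each), and the log2 fold change was 0.16 (SE 0.26, 95% interval -0.40 to 0.73, limma adjusted p = 0.807). Leaving out CON ASO replicate 4 turned it to -0.19, and leaving out CON ASO replicate 2 raised it to 0.44.

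*Clock* (chromosome 5, 76209868 to 76304792, minus strand), whose mRNA cycles little in the liver, was at 43.4, 43.2 and 35.5 CPM in CON ASO and at 44.1, 38.9 and 39.8 CPM in MMAB ASO livers. Its log2 fold change was 0.01 (SE 0.13, limma adjusted p = 0.976). With a 95% interval of -0.27 to 0.29, *Clock* had the narrowest interval of the 10 genes, and its sign changed when CON ASO replicate 4 (-0.083) or MMAB ASO replicate 1 (-0.041) was left out. *Npas2* (chromosome 1, 39193731 to 39363236, plus strand) was at 2.28, 2.09 and 0.785 CPM in CON ASO and at 1.36, 1.95 and 1.25 CPM in MMAB ASO livers. The lowest liver was again CON ASO replicate 4. Its log2 fold change of -0.06 (SE 0.38, 95% interval -0.88 to 0.77, limma adjusted p = 0.960) was -0.55 without that liver and 0.22 without CON ASO replicate 1. *Npas2* rested on an estimated 40 to 116 reads a library and *Per3* on 36 to 200, against 1780 to 2390 for *Clock*. By read number the first pair is thus measured with the least precision.

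**Figure D2:**
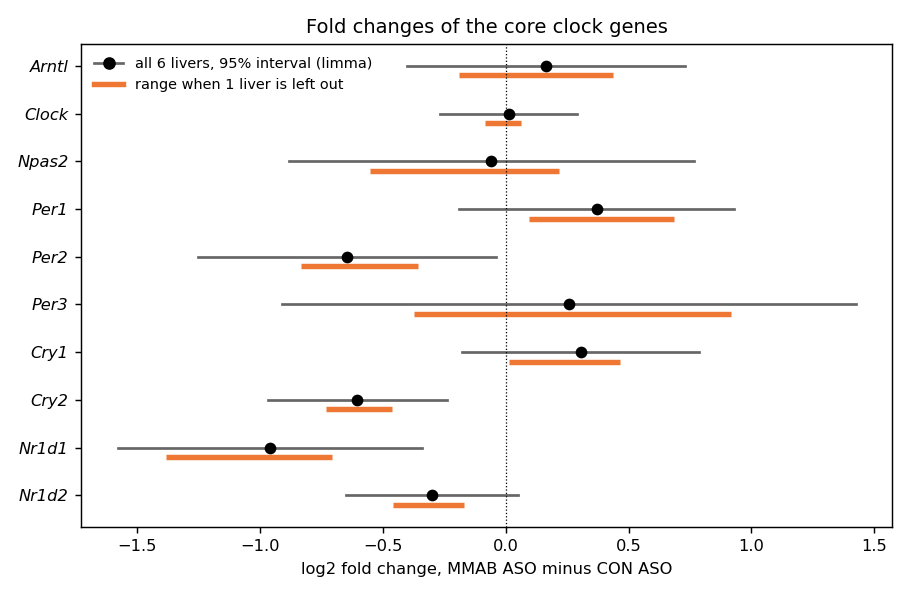
Log2 fold change (MMAB ASO minus CON ASO) of each core clock gene over all 6 livers (black point) with its 95% interval from limma (grey line), and the range of the estimate when 1 liver is left out in turn (orange bar). The intervals of *Per2*, *Cry2* and *Nr1d1* do not reach 0, and the orange bars of *Arntl*, *Clock*, *Npas2* and *Per3* cross 0.

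Genes of opposite phase can move in opposite directions when the phase shifts, and the comparison of the 2 arms asks whether activators and repressors did. The direction of each gene depends on the hour, which is not known. *Clock* cycles little and *Cry1* is later than the other repressors, so this comparison cannot decide on a shift in phase. For each liver the log2 deviation of each gene from its CON ASO mean was averaged over the 3 activators and over the 7 repressors, as a description with no test. The activators deviated by 0.27, 0.36 and -0.63 in CON ASO replicates 1, 2 and 4 and by 0.10, 0.13 and -0.11 in MMAB ASO replicates 1, 2 and 4. The repressors deviated by -0.02, -0.31 and 0.33 in CON ASO and by -0.26, -0.44 and 0.03 in MMAB ASO livers. Activators minus repressors came to 0.29, 0.67 and -0.96 in CON ASO and 0.36, 0.57 and -0.14 in MMAB ASO livers, where *Arntl*, *Clock* and *Npas2* count as activators.

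By this measure the groups overlapped, and the largest difference lay within the CON ASO group. Activators minus repressors averaged 0.26 ± 0.37 (SD, n = 3) in MMAB ASO livers, relative to 0 ± 0.85 (SD, n = 3) in CON ASO livers, where the mean is 0 by construction. Without CON ASO replicate 4 the difference between groups was -0.21, and without CON ASO replicate 2 it was 0.60. In CON ASO replicate 4, *Arntl*, *Clock*, *Npas2* and *Cry1* were at their lowest and *Per2*, *Per3* and *Nr1d2* at their highest, so the 3 activators were lowest in the same liver in which 3 of the 7 repressors were highest. MMAB ASO replicate 4 was at neither end for any of the 10 genes, where it was so for 31.9% of all genes tested, and MMAB ASO replicate 1 was at one end for 5 (25.8% of all genes).

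The repressors did not all go one way. *Per2*, *Cry2*, *Nr1d1* and *Nr1d2* had negative and *Per1*, *Per3* and *Cry1* positive log2 fold changes, so an average over the period and cryptochrome genes mixes both signs. The 5 period and cryptochrome genes deviated by -0.08, -0.32 and 0.40 in CON ASO and by -0.01, -0.27 and 0.09 in MMAB ASO livers, so that the groups overlapped. The REV-ERB pair deviated by 0.14, -0.30 and 0.15 in CON ASO and by -0.89, -0.88 and -0.11 in MMAB ASO livers. With *Nr1d1* and *Nr1d2* as the only repressors the difference between groups was 0.67, and with *Per1*, *Per2* and *Per3* as the only repressors it was 0.05. On the log2 scale *Arntl* minus *Nr1d1*, a pair of opposite phase, was -2.19, -1.32 and -2.89 in CON ASO and -0.29, -0.71 and -2.03 in MMAB ASO livers. MMAB ASO replicate 4 lay within the CON ASO range for this pair, and the other MMAB ASO livers lay above it.

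**Figure D3:**
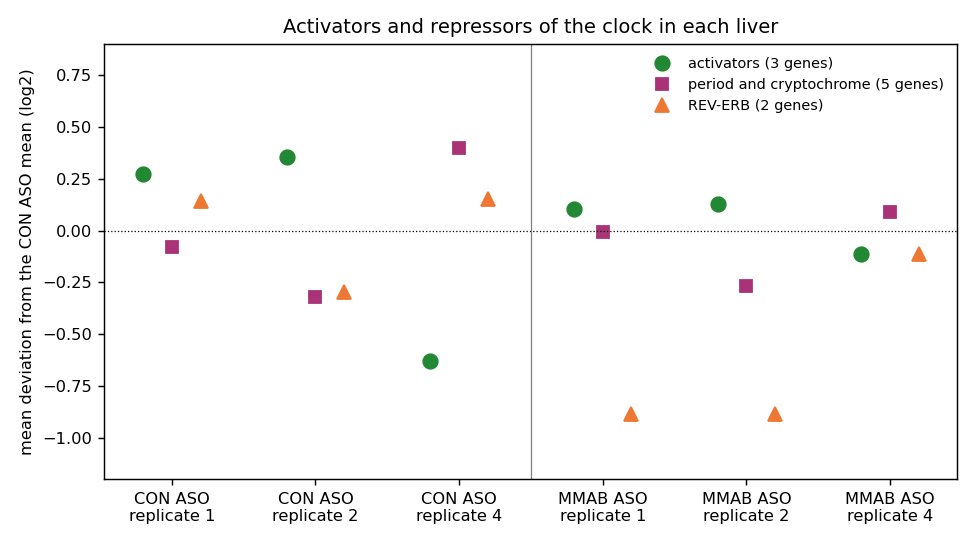
Mean log2 deviation from the CON ASO mean of the 3 activators (circles), the 5 period and cryptochrome genes (squares) and the 2 REV-ERB genes (triangles) in each liver. CON ASO replicate 4 has activators at -0.63 and period and cryptochrome genes at 0.40, and MMAB ASO replicates 1 and 2 have REV-ERB genes at -0.89 and -0.88.

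By the median, core clock genes varied more between livers of 1 group than all genes tested did, with no matching for level. The median SD of the 10 genes on the log2 scale was 0.51 among CON ASO and 0.28 among MMAB ASO livers, and over all genes tested it was 0.20 and 0.16. The SD was larger among CON ASO livers for 8 of the 10, where it was so for 60.5% of all genes. *Cry2* and *Nr1d1* were the other 2, and *Nr1d1* had an SD of 0.25 among CON ASO and 0.74 among MMAB ASO livers. *Clock* varied least in both groups, with SDs of 0.17 and 0.10, below the median of all genes tested. *Cry1* was below it too among MMAB ASO livers (0.13).

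Per kilobase of exon, the REV-ERB genes were the most abundant of the loop and *Npas2* and *Per3* the least. In CON ASO livers *Nr1d1* was at 11.2 ± 1.87 CPM per kb and *Nr1d2* at 5.89 ± 1.16 (SD, n = 3 each), and their ranges did not overlap. *Cry2* (2.98 ± 0.44) and *Clock* (2.96 ± 0.33) followed and overlapped each other, both below *Nr1d2*. *Cry1* (2.06 ± 0.64), *Per1* (1.41 ± 0.59), *Arntl* (1.10 ± 0.44) and *Per2* (0.696 ± 0.26 CPM per kb) each overlapped with the next in this order, and *Cry1* lay below *Clock*. *Npas2* (0.359 ± 0.17) lay below *Per2* and overlapped with *Per3* (0.212 ± 0.18 CPM per kb). In MMAB ASO livers *Nr1d1* was at 6.28 ± 3.50 CPM per kb and overlapped with *Nr1d2* at 4.75 ± 0.56, while *Cry2* at 1.97 ± 0.36 was below *Clock* at 2.98 ± 0.20 CPM per kb.

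**Figure D4:**
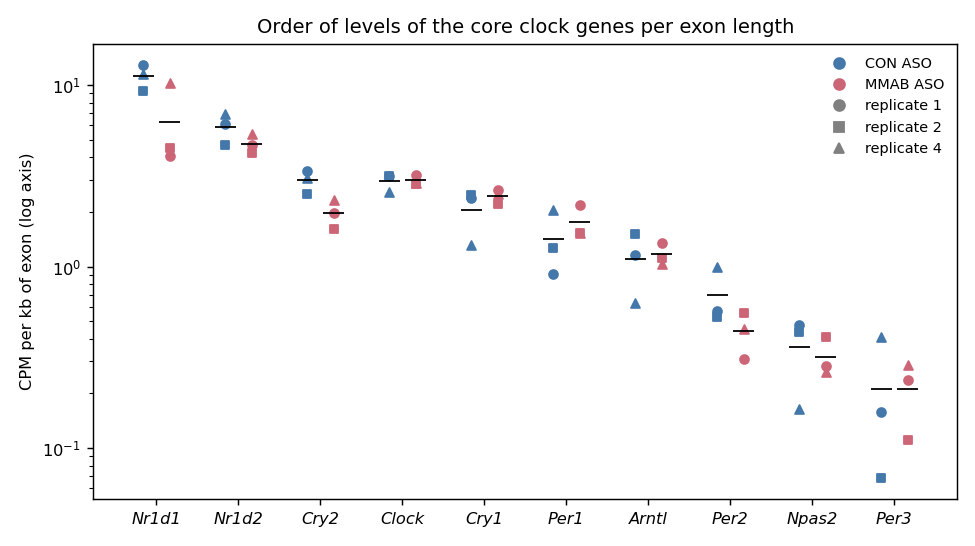
Level of each core clock gene in CPM per kb of annotated exon on a log axis, in order of the CON ASO mean, with 1 point for each liver and a bar at the mean of each group. *Nr1d1* ranges from 4.04 to 12.9 and *Per3* from 0.0682 to 0.409 CPM per kb over the 6 livers.

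Exons of 3 core clock genes overlap those of another gene on the opposite strand in GENCODE M21. Exons of *Nr1d1* and of the thyroid hormone receptor gene *Thra* share 263 bases, 8.55% of the exon bases of *Nr1d1*. *Cry2* shares 295 bases (4.67%) with the noncoding gene D930015M05Rik and *Arntl* 33 bases (0.439%) with Gm45355. Whether reads were counted by strand is not given in the sources used here, so reads of the shared bases cannot be assigned. *Thra* was at 8.87, 7.19 and 6.69 CPM in CON ASO and at 9.39, 9.13 and 9.32 CPM in MMAB ASO livers (log2 fold change 0.30, limma adjusted p = 0.324), the opposite direction to *Nr1d1*. D930015M05Rik was at 0.124 to 0.276 CPM over the 6 livers, low beside the 10.1 to 21.3 CPM of *Cry2*.

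Some genes followed *Arntl* or *Nr1d1* closely over these 6 livers. Among 7502 genes whose mean reached 5 CPM, the nearest to *Arntl* by root mean square distance of centred log2 values were *Pabpc4* (0.17), *Tmem41a* (0.17) and *Zcchc8* (0.18), where *Arntl* itself had a root mean square of 0.40. *Pabpc4* encodes a poly(A) binding protein. It was at 7.35, 10.9 and 5.38 CPM in CON ASO and at 8.20, 8.003 and 8.10 CPM in MMAB ASO livers, with CON ASO replicate 4 again lowest. The nearest to *Nr1d1*, whose own root mean square was 0.66, were *Osgin1* (0.26), *Slc39a11* (0.30) and *Camk2b* (0.31). *Osgin1* was at 44.0, 32.5 and 39.2 CPM in CON ASO and at 15.4, 24.4 and 31.9 CPM in MMAB ASO livers. With 6 livers and 7502 genes, close matches of this kind are a description of these livers.

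Transcription factors that carry the clock to its output genes were examined as a list of 10, of which 9 were tested and 0 passed an adjusted p of 0.05. Their median log2 fold change was -0.04, beside 0.03 over all genes tested. *Dbp*, a D-box activator driven by E-boxes and among the strongest cycling liver mRNAs, was at 2.59, 2.09 and 8.49 CPM in CON ASO and at 0.998, 0.704 and 1.71 CPM in MMAB ASO livers. Each MMAB ASO liver was below each CON ASO liver, and CON ASO replicate 4 was far above the rest. The log2 fold change of *Dbp* was -1.75 (SE 0.47, limma unadjusted p = 0.00274, adjusted p = 0.0600). Leaving out CON ASO replicate 4 gave -1.13 (adjusted p = 0.189), and leaving out CON ASO replicate 2 gave -2.14 (adjusted p = 0.00541).

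*Nfil3*, the D-box repressor that cycles against *Dbp*, was at 22.7, 26.6 and 10.1 CPM in CON ASO and at 29.6, 27.1 and 26.7 CPM in MMAB ASO livers. The groups did not overlap, but CON ASO replicate 2 lay just below the MMAB ASO range and CON ASO replicate 4 far below it. The log2 fold change was 0.60 (limma unadjusted p = 0.04996, adjusted p = 0.281). Leaving out CON ASO replicate 4 gave 0.17 (adjusted p = 0.564), and leaving out CON ASO replicate 2 gave 0.87 (adjusted p = 0.0402). *Hlf*, a further D-box activator, had a log2 fold change of -0.28 (adjusted p = 0.274), also with groups that did not overlap. *Tef*, the remaining D-box activator, was at 19.0 to 34.5 CPM in CON ASO and 20.1 to 30.1 CPM in MMAB ASO livers. CON ASO replicate 4 was the highest or lowest liver for 7 of the 9 tested genes of this list. On the log2 scale *Arntl* minus *Dbp* was 1.75, 2.44 and -0.84 in CON ASO and 3.35, 3.58 and 2.19 in MMAB ASO livers, with MMAB ASO replicate 4 inside the CON ASO range.

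**Figure D5:**
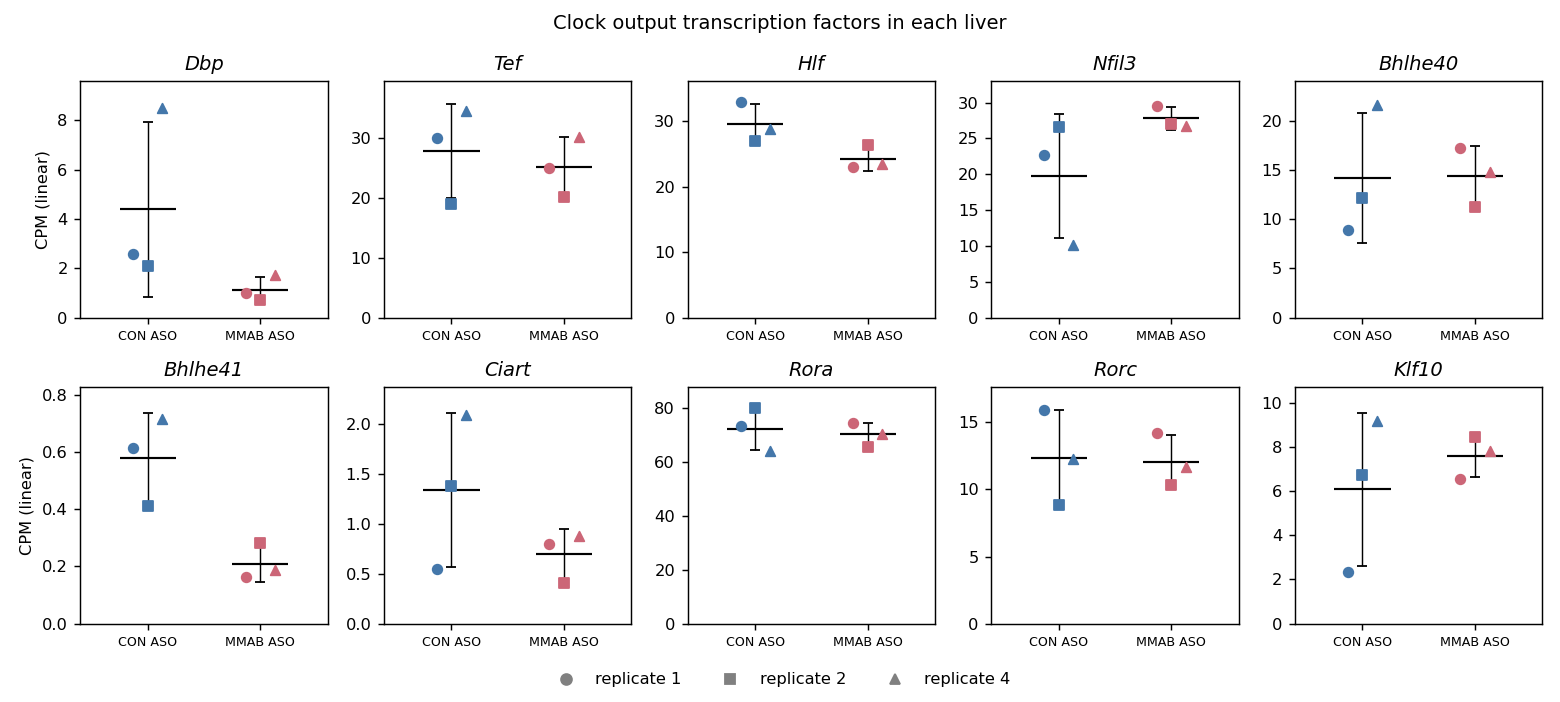
Level in CPM (linear axis from 0) of 10 transcription factors that are outputs or side loops of the clock, by group, with 1 point for each liver, a bar at the mean and error bars of 1 SD (n = 3). *Dbp* is highest at 8.49 and *Nfil3* lowest at 10.1 in CON ASO replicate 4 (blue triangle). *Bhlhe41* had a mean under 1 CPM and was not tested.

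No gene that modifies or assists clock proteins passed the test. Of 19 kinases, ubiquitin ligase subunits, corepressors and related genes 16 were tested, with a median log2 fold change of 0.09 (0.03 over all genes). *Sirt1*, a deacetylase that acts on PER2 and BMAL1, had the smallest p (log2 fold change 0.48, limma adjusted p = 0.181). Of 12 liver genes with known clock control 11 were tested and 1 passed, as higher, where 4.09% of all genes passed in either direction. *Rgs16*, a regulator of G protein signalling, was at 3.84, 1.48 and 1.71 CPM in CON ASO and at 3.85, 10.96 and 8.12 CPM in MMAB ASO livers, where MMAB ASO replicate 1 was level with CON ASO replicate 1. Its log2 fold change was 1.71 (SE 0.39, limma adjusted p = 0.0331). *Rgs16* did not pass without CON ASO replicate 4 (adjusted p = 0.156), MMAB ASO replicate 2 (0.0897) or MMAB ASO replicate 4 (0.111). Nor did it pass with no filter, median-ratio scaling, quantile normalization, no trend or a block for the replicate number (0.0642 to 0.0864). In that list the transferrin receptor gene *Tfrc* (-0.79, adjusted p = 0.0655) and the liver glycogen synthase gene *Gys2* (-0.47, adjusted p = 0.159) had lower values in every MMAB ASO liver without passing, and the median log2 fold change was -0.23. Groups without overlap, as in *Tfrc* and *Gys2*, were found in 22.7% of all genes tested. *Tfrc* passed without MMAB ASO replicate 1 (-1.07, adjusted p = 0.00549) and without CON ASO replicate 2 (-0.83, adjusted p = 0.0493). *Gys2* passed with array weights (-0.64, adjusted p = 0.0356) and was at -0.27 without CON ASO replicate 2.

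Systemic signals that reset liver clocks were represented by lists of glucocorticoid, fasting, heat shock and immediate early genes. Of 10 glucocorticoid response genes 1 passed, as higher, where 4.09% of all genes passed in either direction. *Tsc22d3*, which encodes the glucocorticoid-induced leucine zipper protein, was at 37.4, 35.1 and 47.2 CPM in CON ASO and at 74.1, 81.4 and 52.8 CPM in MMAB ASO livers. Its log2 fold change was 0.79 (SE 0.17, limma adjusted p = 0.0279), and it did not pass without CON ASO replicate 1 (adjusted p = 0.0789), CON ASO replicate 4 (0.0521), MMAB ASO replicate 1 (0.0695) or MMAB ASO replicate 2 (0.0722), nor with no filter, median-ratio scaling or no trend (0.0608 to 0.0766). *Fkbp5* (0.33, adjusted p = 0.243) and *Cdkn1a* (0.78, adjusted p = 0.191) had positive values that did not pass, and the median of the list was 0.25. *Cdkn1a* passed without CON ASO replicate 2 (1.24, adjusted p = 1.96e-04), and it was at 0.46 without CON ASO replicate 4 or with array weights. *Fkbp5* was at 0.22 without MMAB ASO replicate 4.

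The other 3 lists held no gene that passed. Of 12 fasting and CREB response genes 0 passed, among them *Angptl4* (0.42, adjusted p = 0.207), an inhibitor of lipoprotein lipase, and *Cpt1a* (-0.35, adjusted p = 0.220), which admits fatty acids to mitochondria and was at -0.15 with quantile normalization. Of 8 heat shock genes tested 0 passed, with *Hsph1* at 0.69 (adjusted p = 0.248) and a median log2 fold change of 0.24. MMAB ASO replicate 2 was the highest liver for all 8, with a summed level of 764 CPM where the other 5 livers lay between 471 and 581 CPM, and without it *Hsph1* was at 0.31 (adjusted p = 0.565). *Hsph1* was also lower without CON ASO replicate 1 (0.45) and with array weights (0.39). Of 5 immediate early genes tested 0 passed, with *Junb* at -0.68 (adjusted p = 0.108), which was also the median of that list. *Junb* passed with array weights (-0.77, adjusted p = 0.0422) and was at -0.45 without CON ASO replicate 2. The general rule of the study was an overnight fast before in vivo studies unless stated otherwise, and no fed or fasted state is stated for these livers in particular. Food intake and hormone levels were not analysed here.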

How the data were processed

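Ribosomal RNA was depleted from total liver RNA. Per the study's methods, the authors aligned reads with STAR in PartekFlow, estimated transcript abundance with the Partek E/M algorithm, scaled to the total count of each library, added 0.0001 and took log2. The values deposited by the authors are thus log2 CPM, used as deposited in tests and on the linear scale for filters, means and SDs. The table held 0 value columns of no sample, and 20 symbols that had become dates. Steps between low values gave an estimated 44.7 to 55.3 M reads a library (1 read is worth 0.0181 to 0.0224 CPM), but whole reads were not recovered and no count test was run.

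The 11565 of 21297 genes whose mean reached 1 CPM were compared by group alone in limma 3.58.1 (R 4.3.3) with its trend option, and p-values were adjusted over all of them by Benjamini-Hochberg, in place of Partek's GSA test of the study. Fold changes refer to log2(value + 0.0001). The smallest exact two-sided permutation p with 3 against 3 is 0.1. Other settings were pseudocounts of 0.1 and 1, no filter or a filter at 5 CPM, median-ratio, quantile and protein-coding scaling, no trend, a block for the replicate number, array weights and leaving out each library. The clock genes and all lists were chosen with earlier results of these data known. Named are all core clock genes, *Mmab*, the genes of each gene list (cell type markers aside) with an unadjusted p under 0.05 (at most 4, otherwise the 1 with the smallest p), and the 3 genes nearest to *Arntl* and to *Nr1d1*. *Tef*, *Thra*, D930015M05Rik, *Marco* and *Alas2* were added after their values were seen. Coordinates are those of GRCm38, the same in the table and in GENCODE M21 for 10 of 10 clock genes. Promoters are from RefSeq. Lengths are the union of annotated exons. Python 3.11.15, pandas 2.3.3, scipy 1.17.1 and matplotlib 3.10.9 were used.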

Additional observations from a re-analysis of the deposited data

How the results depend on the processing

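The number of core clock genes with an adjusted p under 0.05 was 0 in all settings that kept the 6 livers except the fit with the replicate number as a block, in which it was 1 (*Cry2*, adjusted p = 0.0415). Over all genes tested, same-numbered livers did not deviate together (correlations of -0.02, 0.05 and -0.01). The numbers were therefore not taken as pairs, and the block gave 430 genes in all. For the clock genes alone such pairing was not tested. Activators minus repressors had the same order of replicates in both groups. The values were 0.29, 0.67 and -0.96 in CON ASO and 0.36, 0.57 and -0.14 in MMAB ASO livers. *Per3* and *Nr1d2* also kept their order of replicates, and *Arntl* and *Per1* did not. Among the other genes named, *Dbp* passed with the block (adjusted p = 0.00821) and *Rgs16* no longer did (0.0643). With 1 liver left out the number was 0 to 2, and over all genes it was 157 to 536, beside 473. It was 255 with no filter, 268 with a filter at a mean of 5 CPM, at which *Npas2*, *Per2* and *Per3* were not tested, and 768 with array weights. At the thresholds of the study 1049 genes passed, 608 with a pseudocount of 1, 1947 with no filter and 409 with the filter at 5 CPM. Of 97 estimates for the core clock genes in these settings 95 kept their direction. *Clock* turned to -0.013 with median-ratio scaling and *Npas2* to 0.030 with protein-coding scaling. With 1 liver left out 51 of 60 kept it. *Arntl* ranged from -0.19 to 0.44, *Clock* from -0.083 to 0.063, *Npas2* from -0.55 to 0.22 and *Per3* from -0.37 to 0.92, and the cause was not tested. Activators minus repressors ranged from -0.21 to 0.60 with 1 liver left out. Of the genes called, 45.7% were higher in MMAB ASO, 34.1% with median-ratio scaling and 65.7% with protein-coding scaling, which moved the median of all genes from 0.03 to 0.12. With 3 livers a group, *Per3* and *Npas2* had the widest intervals. They had the fewest reads and also the largest SDs among CON ASO livers (1.29 and 0.85 on the log2 scale).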
